A study of Homo sapiens with 14 samples.

Results

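MYBPH, CHI3L1, LGALS3BP, FCER2 and GNG4 are 5 of the 13720 genes with a row in all 3 count tables of the series. They were listed by symbol as genes that EZH2 depletion moves in opposite directions in the leukaemia lines MV4;11 and EOL-1, so the values that chose them are their own changes in those EZH2 comparisons, which are described here without a test. In the data 4 of the 5 followed that description, FCER2 in EOL-1 only by a small rise on few counts. GNG4 did not, because it was lower with EZH2 depletion in both lines. The comparisons of the cMyc guides are not part of that description and were tested. The genes were listed with earlier results of these data known, so these p-values may not be free of the choice. Differences between the control cultures use the EV and EOL-1 sgEV libraries that entered the choice, so they are described without a test as well.

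RNA-seq libraries were made from 2 human cell lines. MV4;11 derives from a myelomonocytic leukaemia with a KMT2A-AFF1 fusion, and EOL-1 derives from a leukaemia of the eosinophil lineage. The groups used, 2 libraries each, were MV4;11 with shEZH2 and MV4;11 with its control EV, MV4;11 with cMyc sgRNA 1, MV4;11 with cMyc sgRNA 5 and MV4;11 with their control sgEV, and EOL-1 with sgEZH2 and EOL-1 with its own control sgEV. The labels give doxycycline at 1 µg/ml for 4 days for the cultures, controls included, and they do not name separate cultures for the libraries within a group, so the p-values reflect variation among these libraries, which may be technical. The agents differ between the lines (an shRNA in MV4;11, an sgRNA in EOL-1), each EZH2 comparison was made with 1 such agent, and neither clones nor pools are stated.

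EZH2 is the catalytic subunit of Polycomb repressive complex PRC2, which methylates lysine 27 of histone H3 and is known for silencing genes. The series addresses another role, in which EZH2 acts with cMyc and p300 on genes that it activates, so that a gene may lose or gain transcript when EZH2 is removed. The 5 genes encode proteins of unrelated kinds. MYBPH is myosin-binding protein H, a sarcomere protein of the same immunoglobulin and fibronectin domain family as the myosin-binding C proteins. CHI3L1, also called YKL-40, is a secreted glycoprotein of the chitinase family that lacks enzyme activity and is made by macrophages and neutrophils among other cells. LGALS3BP is a secreted glycoprotein that binds galectins and is a known interferon-induced gene. FCER2 is CD23, the low-affinity IgE receptor of B cells and monocytes, which interleukin 4 and Notch signalling are known to induce. GNG4 is a gamma subunit of heterotrimeric G proteins, best known from neurons.

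MYBPH and CHI3L1 are next to each other on chromosome 1 on the same strand, and GNG4 lies elsewhere on that chromosome. LGALS3BP is on chromosome 17 and FCER2 on chromosome 19. The promoter windows are shown for the genes that moved oppositely. These genes were listed for that pattern, so their moving together is no separate result. Each window is 300 bases long on the minus strand of GRCh38.p14 from RefSeq, with 250 bases before the annotated start and 50 after it. All 5 genes matched the RefSeq table. The windows are chr1:203175777-203176076 for MYBPH, chr1:203186655-203186954 for CHI3L1, chr17:78979874-78980173 for LGALS3BP and chr19:7702082-7702381 for the upstream start of FCER2. Capitals mark matches to 4 motifs searched on both strands, which were the E-box CACGTG that MYC binds, the interferon-stimulated element (GAAA and GAAA again, 2 bases apart), the STAT6-type site (TTC and GAA, 4 bases apart) and the RBPJ core TGGGAA.
MYBPH: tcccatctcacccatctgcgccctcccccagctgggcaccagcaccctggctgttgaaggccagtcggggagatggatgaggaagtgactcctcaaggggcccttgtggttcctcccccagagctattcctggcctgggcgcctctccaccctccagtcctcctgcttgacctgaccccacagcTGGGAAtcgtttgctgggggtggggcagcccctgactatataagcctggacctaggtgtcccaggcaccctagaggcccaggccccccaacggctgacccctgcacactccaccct
CHI3L1: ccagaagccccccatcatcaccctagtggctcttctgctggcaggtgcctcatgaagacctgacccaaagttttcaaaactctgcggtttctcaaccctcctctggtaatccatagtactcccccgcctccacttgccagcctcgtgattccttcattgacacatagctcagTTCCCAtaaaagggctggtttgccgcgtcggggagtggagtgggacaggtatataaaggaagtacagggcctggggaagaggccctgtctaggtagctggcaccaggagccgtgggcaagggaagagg
LGALS3BP: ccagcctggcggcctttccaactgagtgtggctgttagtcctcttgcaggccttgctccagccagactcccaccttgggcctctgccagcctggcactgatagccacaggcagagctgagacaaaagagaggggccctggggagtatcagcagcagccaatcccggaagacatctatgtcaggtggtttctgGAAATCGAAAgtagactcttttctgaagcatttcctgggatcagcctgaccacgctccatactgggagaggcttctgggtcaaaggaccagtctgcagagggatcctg
FCER2: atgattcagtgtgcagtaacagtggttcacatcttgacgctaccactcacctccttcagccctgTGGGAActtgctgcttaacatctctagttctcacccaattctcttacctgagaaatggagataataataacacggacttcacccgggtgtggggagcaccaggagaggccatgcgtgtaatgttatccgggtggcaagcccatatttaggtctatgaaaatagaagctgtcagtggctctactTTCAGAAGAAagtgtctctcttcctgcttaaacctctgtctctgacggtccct
MYBPH and CHI3L1 each held the RBPJ letters, at -66 and at -78 from the start (on the other strand in CHI3L1). LGALS3BP held the interferon-element letters at -58. FCER2 held the STAT6-type letters from -3 onwards, across the start, and the RBPJ letters at -186. A further window of FCER2, at chr19:7699392-7699691, held the interferon-element letters at -58 and the RBPJ letters at -202. None of the 6 windows held the E-box letters. Of 35116 promoter windows of this length, 7.26% held the E-box letters, 3.57% those of the interferon element, 6.44% the STAT6-type and 24% the RBPJ core. The windows of the 4 genes had 4 to 7 CpG pairs, below the median of 14 over all windows. The GNG4 window, at chr1:235650559-235650858, had 30 CpG pairs, more than 77.6% of windows, and none of the 4 motifs. A match describes letters only, and no binding was measured here.

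Each MV4;11 library held between 13313056 and 16274554 gene counts and each EOL-1 library between 24574136 and 30256833, so that 1 CPM, the count scaled to library size, stood for about 15.9 counts in the shEZH2 table, 14 in the sgcMyc table and 27 in the EOL-1 table. Levels are CPM scaled by TMM, which are not per length and are compared only within a gene. EZH2 transcript was 9.75 and 9.70 CPM with shEZH2, against 73.3 and 75.8 CPM with EV, a log2 fold change of -2.94 ± 0.07 (edgeR, adjusted p = 2.8e-09). In EOL-1 it was 27.8 and 26.1 CPM with sgEZH2, against 70.7 and 70.4 CPM with sgEV (-1.39 ± 0.05, edgeR, adjusted p = 3.2e-13). More EZH2 transcript was thus left in EOL-1, but under an sgRNA the transcript level checks neither cutting nor protein. These libraries do not show how much EZH2 protein was left in either line. MYC transcript was higher, not lower, in the libraries labelled sgcMyc (866 and 872 CPM with guide 1 and 818 and 822 CPM with guide 5, against 658 and 660 CPM with sgEV), which checks neither cutting nor protein. MV4;11 expressed 6 or 7 of 7 general myeloid markers at 1 CPM or more. No eosinophil marker of the 7 listed was analysed in EOL-1, so its label could not be checked on them.

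**Figure D1:**
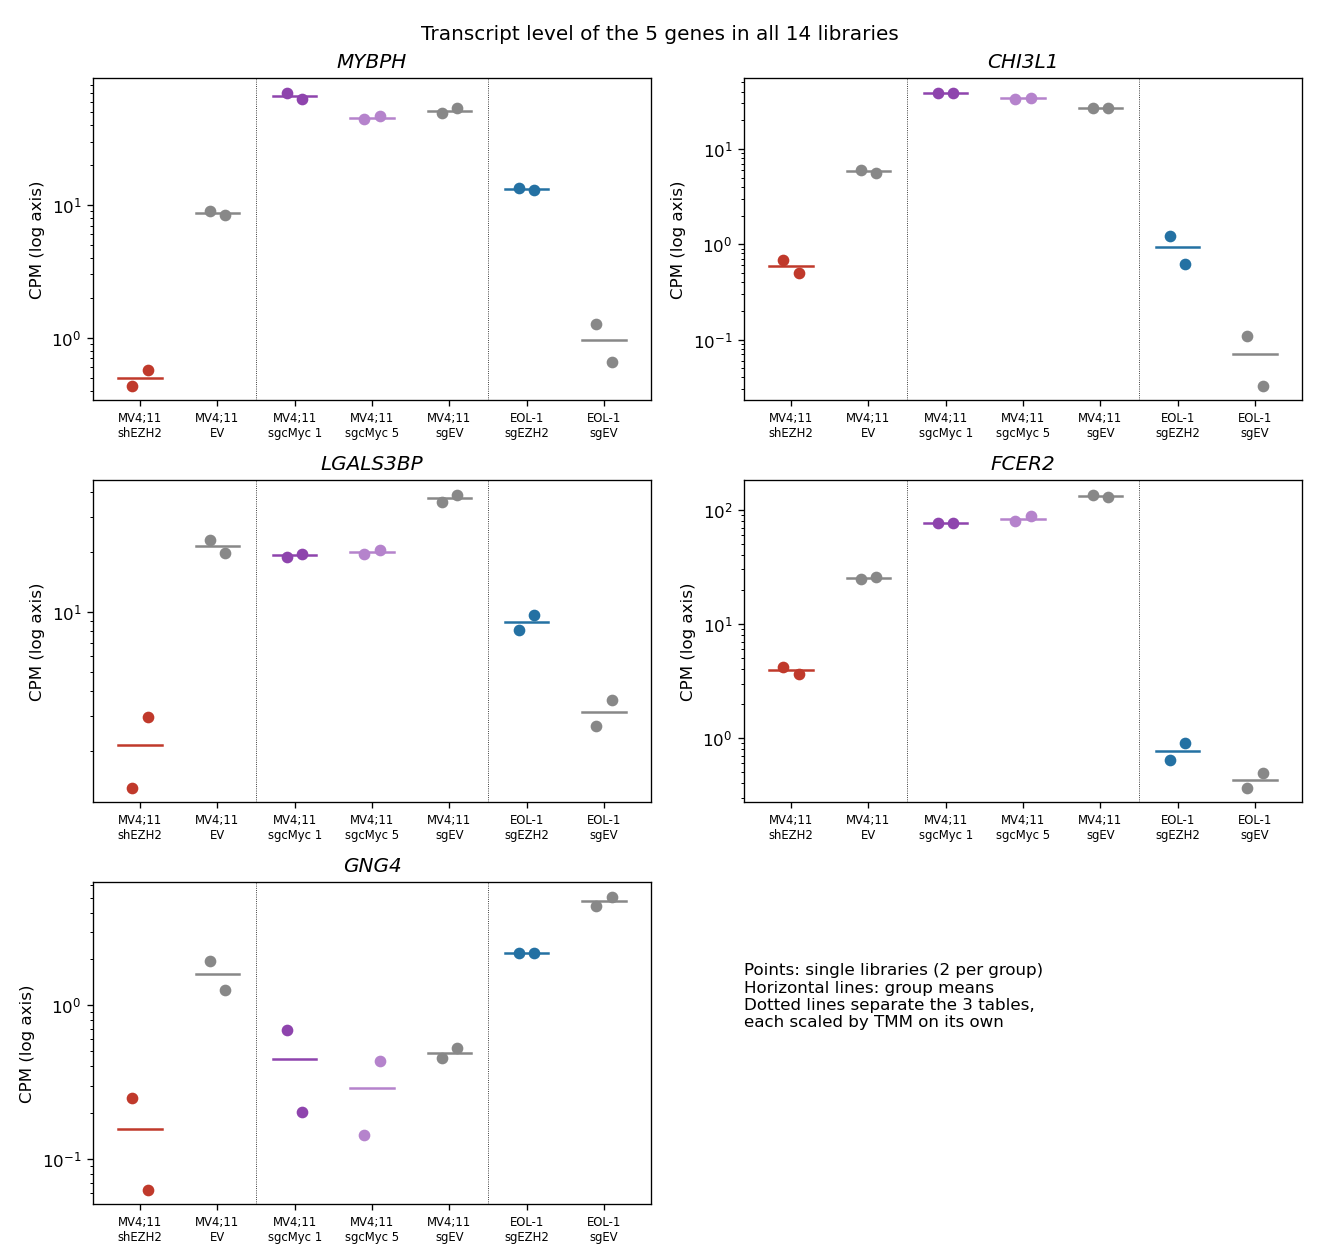
Level of each of the 5 genes in all 14 libraries, in CPM on a log axis, with 1 panel per gene, points for libraries and lines for group means. MYBPH, CHI3L1, LGALS3BP and FCER2 are lower in shEZH2 than in EV and higher in sgEZH2 than in sgEV of EOL-1, whereas GNG4 is lower in both.

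MYBPH, the muscle-type protein, moved farthest. It was 0.435 and 0.567 CPM with shEZH2 (7 and 9 counts), against 9.05 and 8.46 CPM with EV (145 and 128 counts). In EOL-1 it was 13.4 and 13.1 CPM with sgEZH2 (358 and 316 counts), against 1.28 and 0.655 CPM with sgEV (35 and 20 counts). The libraries of a comparison did not overlap in either line. The log2 fold change was -4.11 ± 0.23 in MV4;11, which left 5.8% of the EV level, and 3.79 ± 0.18 in EOL-1. These were the 18th lowest of 13591 genes tested in MV4;11 and the 41st highest of 13890 in EOL-1. MYBPH was listed for these changes, so nothing is read from these places. With 7 and 9 counts in the shEZH2 libraries, it passed the count filter of that comparison through the EV libraries alone. Of 8 listed skeletal muscle markers only 1 was analysed, in MV4;11, where it was 0 CPM in both shEZH2 libraries and at most 1.28 CPM in any other.

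CHI3L1, the secreted chitinase-like protein, was 0.683 and 0.504 CPM with shEZH2 (11 and 8 counts), against 5.99 and 5.62 CPM with EV (96 and 85 counts). In EOL-1 it was 1.23 and 0.62 CPM with sgEZH2 (33 and 15 counts), against 0.11 and 0.0327 CPM with sgEV (3 counts and 1 count). Again no libraries overlapped. The log2 fold change was -3.27 ± 0.26 in MV4;11 and 3.67 ± 0.63 in EOL-1. The EOL-1 value rests on 48 summed counts with sgEZH2 and 4 with sgEV. CHI3L1 passed the count filter in EOL-1 through the sgEZH2 libraries alone, so a gene at its level had to differ to be included. Leaving out a library of EOL-1 moved the log2 fold change to 4.65 (without sgEV library 1), 3.03 (without sgEV library 2) or 3.07 (without sgEZH2 library 1). RefSeq records of MYBPH and CHI3L1 overlap on the same strand, whereas GENCODE 29 records do not, so a share of reads could count for either gene, depending on the annotation used.

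LGALS3BP, the galectin-binding glycoprotein, was 1.30 and 2.96 CPM with shEZH2 (21 and 47 counts), against 23.0 and 19.7 CPM with EV (368 and 298 counts). In EOL-1 it was 8.11 and 9.64 CPM with sgEZH2 (217 and 233 counts), against 2.67 and 3.60 CPM with sgEV (73 and 110 counts). The groups stood apart in both lines, although the shEZH2 libraries differed from each other by a larger ratio than those of any other group. The log2 fold change was -3.32 ± 0.25 in MV4;11 and 1.49 ± 0.15 in EOL-1, so the change was larger in MV4;11 than in EOL-1. Without shEZH2 library 2, the higher of the pair, it was -4.02 in MV4;11.

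FCER2, the IgE receptor CD23, was 4.16 and 3.65 CPM with shEZH2 (67 and 58 counts), against 24.8 and 25.5 CPM with EV (397 and 386 counts). In EOL-1 all libraries were under 1 CPM, at 0.635 and 0.91 CPM with sgEZH2 (17 and 22 counts), against 0.366 and 0.491 CPM with sgEV (10 and 15 counts). The log2 fold change was -2.68 ± 0.12 in MV4;11 and 0.83 ± 0.42 in EOL-1. The EOL-1 libraries did not overlap, but the value there rests on 39 summed counts with sgEZH2 and 25 with sgEV.

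GNG4, the G protein gamma subunit, went against the description it was listed under. With shEZH2 it was 0.248 and 0.063 CPM (4 counts and 1 count), against 1.93 and 1.26 CPM with EV (31 and 19 counts). In EOL-1 it was 2.17 and 2.19 CPM with sgEZH2 (58 and 53 counts), against 4.42 and 5.04 CPM with sgEV (121 and 154 counts). It was lower in both lines, with no overlap of libraries, by -3.29 ± 0.59 in MV4;11 and -1.12 ± 0.17 in EOL-1 on the log2 scale. The MV4;11 value rests on 5 summed counts with shEZH2 and 50 with EV, and GNG4 passed the count filter there through the EV libraries alone, so it had to differ to be included. The log2 fold change was -4.50 without shEZH2 library 1 and -2.65 without shEZH2 library 2. GNG4 thus had the same direction in both lines, and its larger fitted change in MV4;11 rests on few counts. On the authors' log2 values the changes were -0.57 in MV4;11 and -0.411 in EOL-1.

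**Figure D2:**
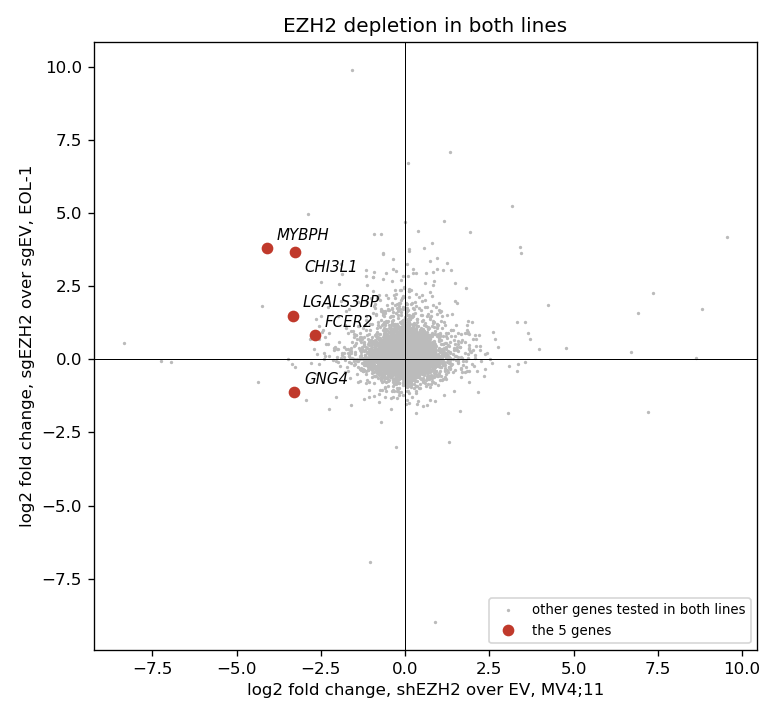
Log2 fold change of every gene tested in both EZH2 comparisons, with shEZH2 over EV in MV4;11 on the horizontal axis and sgEZH2 over sgEV in EOL-1 on the vertical axis, and the 5 genes in red. MYBPH, CHI3L1, LGALS3BP and FCER2 lie left of 0 and above 0, and GNG4 lies left of 0 and below 0.

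The difference of the EZH2 effects, MV4;11 minus EOL-1 in a joint fit, was -7.89 ± 0.32 for MYBPH, -6.92 ± 0.66 for CHI3L1, -4.80 ± 0.34 for LGALS3BP, -3.50 ± 0.34 for FCER2 and -2.18 ± 0.56 for GNG4. Their places from the lowest of 13543 genes were 10 for MYBPH, 19 for CHI3L1, 52 for LGALS3BP, 102 for FCER2 and 262 for GNG4. Since the genes were listed for this difference, nothing is read from these places. The difference for LGALS3BP was -5.52 without shEZH2 library 2. That for CHI3L1 was -7.88 and -6.29 without sgEV library 1 or 2 of EOL-1 and -6.33 without its sgEZH2 library 1, and that for GNG4 was -3.42 and -1.54 without shEZH2 library 1 or 2. For the background, 27.7% of genes were called in the shEZH2 comparison (14.2% lower), 26.9% in EOL-1 (15.1% higher) and 26.5% for the difference of effects, at an adjusted p under 0.05. The scatter of both EZH2 comparisons puts the genes in a quadrant that holds others too. Of 12632 genes tested in both, 369 (2.92%) were called lower in MV4;11 and higher in EOL-1 and 221 (1.75%) the reverse, while 338 (2.68%) were called lower in both and 448 (3.55%) higher in both. Line, agent, remaining EZH2 transcript and table cannot be told apart in any difference between the lines. In bulk libraries fewer cells with a transcript and less transcript per cell cannot be told apart either.

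Markers of monocytes differed in the EZH2 comparisons as well, though not all in 1 direction. The summed level of CD68, CSF1R and LYZ, the 3 of 7 listed monocyte and macrophage markers analysed, was 581 to 585 CPM with shEZH2 and 275 to 291 CPM with EV. It was 1750 to 1780 CPM with sgEZH2 in EOL-1 and 255 to 263 CPM with its sgEV. In MV4;11 LYZ carried most of the higher sum, at 498 and 506 CPM with shEZH2, against 186 and 202 CPM with EV. CD68 was lower there, at 27.3 and 27.4 CPM with shEZH2, against 39.1 and 39.5 CPM with EV. In EOL-1 LYZ (1630 and 1650 CPM with sgEZH2, against 202 and 195 CPM with sgEV) and CD68 (86.1 and 91.5 CPM with sgEZH2, against 59 and 57.3 CPM with sgEV) were both higher. CSF1R, the receptor of the macrophage growth factor, was 36.9 and 35.6 CPM with sgEZH2, against 2.27 and 3.05 CPM with sgEV of EOL-1, and it was 56.1 and 52.1 CPM with shEZH2, against 49.7 and 49.7 CPM with EV. The B cell markers, of which 2 to 3 of 7 were analysed, summed to 3.1 to 3.59 CPM with shEZH2 and 2.62 to 3.64 CPM with EV, and to 6.46 to 7.69 CPM with sgEZH2 and 3.29 to 3.64 CPM with sgEV of EOL-1. The part of these markers in the changes of the 5 genes was not tested.

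The cMyc guides asked whether the genes also move when cMyc is the target, and here the genes were tested. In the mean of both guides 37.3% of all 13948 genes tested passed (18.6% higher, 18.7% lower), and with each guide alone 32.2% passed for guide 1 and 31.2% for guide 5, so a call is common. Scaling by spike-in RNAs turned that split into 3136 higher and 1169 lower genes, against 2590 and 2613, and moved the median of all genes to 0.113 on the log2 scale. The directions given here for the 4 genes tested were the same under that scaling. Of these, CHI3L1 was higher, LGALS3BP and FCER2 were lower, and MYBPH did not pass.

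LGALS3BP and FCER2 fell with either guide. LGALS3BP was 18.8 and 19.6 CPM with guide 1 and 19.5 and 20.5 CPM with guide 5, against 35.7 and 38.6 CPM with sgEV. No library with a guide reached those of sgEV. Over both guides the log2 fold change was -0.92 ± 0.07 (edgeR, adjusted p = 4.89e-07), with -0.95 ± 0.08 for guide 1 and -0.89 ± 0.08 for guide 5. FCER2 was 76.9 and 77.3 CPM with guide 1 and 79.8 and 88.2 CPM with guide 5, against 135 and 130 CPM with sgEV. Its log2 fold change was -0.72 ± 0.05 over both guides (edgeR, adjusted p = 2.38e-07), and the guides stood again on the same side, at -0.78 ± 0.06 and -0.66 ± 0.06 for guides 1 and 5. Both genes were thus lower with shEZH2 and with the cMyc guides in MV4;11, by less with the guides, in tables with different controls.

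CHI3L1 rose. It was 38.6 and 38.3 CPM with guide 1 and 33.4 and 34.6 CPM with guide 5, against 26.8 and 27.1 CPM with sgEV, without overlap. The log2 fold change was 0.42 ± 0.06 over both guides (edgeR, adjusted p = 0.000219), 0.51 ± 0.07 for guide 1 (edgeR, adjusted p = 0.000155) and 0.33 ± 0.07 for guide 5 (edgeR, adjusted p = 0.00407). With DESeq2 the guide 5 call was lost (adjusted p = 0.0636). CHI3L1 thus went up with the guides in the line in which it was lower with shEZH2.

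MYBPH differed between the guides. It was 69.8 and 63.3 CPM with guide 1 and 44.5 and 46.5 CPM with guide 5, against 49.0 and 54.0 CPM with sgEV. Guide 1 libraries lay above and guide 5 libraries below those of sgEV. Guide 1 gave 0.37 ± 0.07 (edgeR, adjusted p = 0.00188), guide 5 gave -0.18 ± 0.08 (edgeR, adjusted p = 0.0949) and the mean of both gave 0.10 ± 0.06 (edgeR, adjusted p = 0.274). The difference, guide 5 minus guide 1, was -0.55 ± 0.07 (edgeR, adjusted p = 0.00632), in a comparison in which 0.409% of genes were called (0.0789% higher, 0.33% lower). That call was lost with spike-in scaling (adjusted p = 0.239), without guide 1 library 1 (adjusted p = 0.159) and without guide 1 library 2 (adjusted p = 0.0616), and the guide 1 call was lost without sgEV library 1 (adjusted p = 0.0509). For the other 3 genes the guides differed by -0.18 ± 0.07 in CHI3L1, 0.06 ± 0.09 in LGALS3BP and 0.12 ± 0.06 in FCER2, none of which passed. Without guide 5 library 1 the FCER2 difference passed (0.19, edgeR, adjusted p = 0.0391).

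GNG4 was near the limit of detection in these libraries. It had 10 and 3 counts with guide 1 and 2 and 6 counts with guide 5, against 6 and 7 counts with sgEV, and it did not pass the count filter. The groups overlapped. With no count filter the log2 fold change over both guides was -0.44 ± 0.70 (edgeR, adjusted p = 0.671), so a change was not detectable at this depth.

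Of the monocyte markers, LYZ differed most in this table. The sum of the 3 was 4080 to 4110 CPM with guide 1 and 3710 to 3830 CPM with guide 5, against 353 to 367 CPM with sgEV. LYZ, the lysozyme of monocytes and granulocytes, was 3710 and 3730 CPM with guide 1 and 3380 and 3490 CPM with guide 5, against 159 and 158 CPM with sgEV. CD68 was 242 and 246 CPM with guide 1 and 207 and 229 CPM with guide 5, against 97.5 and 87.7 CPM with sgEV. CSF1R differed least, at 129 and 134 CPM with guide 1 and 123 and 116 CPM with guide 5, against 111 and 108 CPM with sgEV. The part of these markers in the changes of LGALS3BP, FCER2 and CHI3L1 was not tested.

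**Figure D3:**
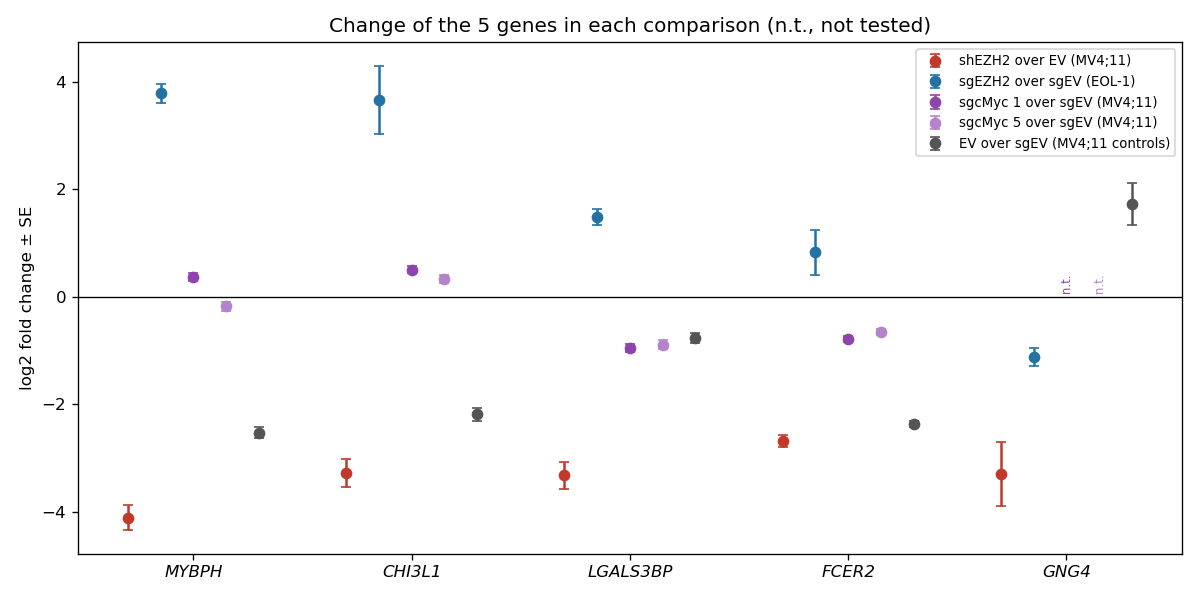
Log2 fold change ± SE of each gene in 5 comparisons: shEZH2 over EV, sgEZH2 over sgEV in EOL-1, cMyc guide 1 and guide 5 over sgEV, and EV over sgEV among MV4;11 controls. LGALS3BP and FCER2 are below 0 with both guides, CHI3L1 is above 0 with both, and the guide points of MYBPH fall on opposite sides of 0.

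The control cultures carry different baselines. EOL-1 sgEV libraries had less MYBPH than MV4;11 sgEV libraries (log2 difference -5.56 ± 0.14), less CHI3L1 (-8.30 ± 0.23), less LGALS3BP (-3.36 ± 0.12) and less FCER2 (-8.05 ± 0.10), and more GNG4 (3.45 ± 0.31). CHI3L1, with 3 counts and 1 count in EOL-1 sgEV, had -9.23 without the sgEV library 1 of that line and -7.67 without its library 2. CHI3L1 and FCER2 (10 and 15 counts) in EOL-1 sgEV and GNG4 in MV4;11 sgEV (6 and 7 counts) were low. These genes entered the fit through the groups where they are high. In that comparison 77.6% of genes were called, 38.6% lower and 39% higher. Line and table cannot be told apart in it.

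The controls of MV4;11 also differed from each other. EV libraries had less MYBPH than sgEV libraries (log2 difference -2.53 ± 0.11), less CHI3L1 (-2.19 ± 0.12), less LGALS3BP (-0.77 ± 0.09) and less FCER2 (-2.37 ± 0.06), with no overlap of libraries in any of them. GNG4 was the exception, at 1.93 and 1.26 CPM in EV, against 0.45 and 0.525 CPM in sgEV (1.73 ± 0.39), and it entered that fit through the groups where it is high. As many as 53.6% of genes were called between these controls (26.5% lower, 27.1% higher), and vector and table cannot be told apart. The same 4 genes were therefore lower in EV than in sgEV and lower again in shEZH2 than in EV. For MYBPH, CHI3L1 and FCER2 the difference between the MV4;11 controls was larger in size than every change seen with a cMyc guide.

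Set in order, the group means of MYBPH and CHI3L1 were highest in MV4;11 of the sgcMyc table, with guide 1 at the top (MYBPH 66.5 ± 4.58 CPM, CHI3L1 38.4 ± 0.22 CPM, SD, n = 2). Below the sgcMyc table the order of MYBPH was sgEZH2 of EOL-1 (13.2 ± 0.21 CPM), EV (8.76 ± 0.42), sgEV of EOL-1 (0.967 ± 0.44) and shEZH2 (0.501 ± 0.093), so that MYBPH in EOL-1 depleted of EZH2 stood above its level in EV cells of MV4;11. Its last places lay close, with 0.655 CPM in an EOL-1 sgEV library and 0.567 CPM in a shEZH2 library. CHI3L1 and LGALS3BP with sgEZH2 stayed below EV (CHI3L1 0.927 ± 0.43 against 5.81 ± 0.26 CPM, LGALS3BP 8.87 ± 1.08 against 21.3 ± 2.31 CPM). The lower end of CHI3L1 was shared by sgEZH2 of EOL-1 and shEZH2, whose libraries overlapped, with sgEV of EOL-1 below both. LGALS3BP was highest in sgEV of MV4;11 (37.1 ± 2.05 CPM), and its EV libraries overlapped those of guide 5. FCER2 kept all MV4;11 groups above all EOL-1 groups, with shEZH2 (3.91 ± 0.36 CPM) above sgEZH2 of EOL-1 (0.772 ± 0.19 CPM). GNG4 had the reverse order of lines, highest in sgEV of EOL-1 (4.73 ± 0.44 CPM), then sgEZH2 of EOL-1 (2.18 ± 0.018 CPM) and EV (1.60 ± 0.48 CPM), while the shEZH2 libraries overlapped those of both cMyc guides. Levels set across tables were scaled in each table by itself.

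Across the 14 libraries, each set against its own controls, MYBPH and CHI3L1 ran together (Pearson r = 0.98), as did LGALS3BP and FCER2 (r = 0.97) and MYBPH and LGALS3BP (r = 0.92). MYBPH and FCER2 had r = 0.88, and GNG4 had r = 0.44 to 0.68 with the others. These values describe libraries that share controls, and the genes were chosen on their pattern in the EZH2 libraries among them. Among 9187 genes with a group mean of at least 10 CPM, the pattern of MYBPH was most like that of ITM2C (r = 0.988), SLC37A2 (0.987) and CHI3L1 (0.984). SLC37A2, a sugar-phosphate transporter of the endoplasmic reticulum, was 1.43 and 2.58 CPM with shEZH2, against 7.80 and 7.07 CPM with EV, and 10.4 and 10.6 CPM with sgEZH2, against 2.63 and 2.65 CPM with sgEV of EOL-1. Nearest to CHI3L1 after MYBPH were YPEL5 (0.978) and KLHL36 (0.976). LGALS3BP was nearest to CAPG, an actin-capping protein of macrophages (0.987), FCER1G, the shared gamma chain of Fc receptors (0.977), and ATP10A (0.975). FCER2 was nearest to MGST3 (0.989), PEA15 (0.984) and VASP (0.983), and GNG4 less closely to HBS1L (0.94), TYK2 (0.927) and KCTD10 (0.918). The sizes differed widely within these patterns. ITM2C changed by -0.39 with shEZH2 and by 0.44 with sgEZH2 on the log2 scale, and SLC37A2 by -1.89 and 1.99 in the same order.

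The genes next to the 5 moved in both directions or did not pass. Of 24 protein-coding neighbours, up to 3 on each side, 14 were tested in the shEZH2 comparison (4 higher, 2 lower), 11 in EOL-1 (2 higher, by edgeR at an adjusted p under 0.05) and 16 with the cMyc guides (5 higher, 2 lower). Over all genes the shares called were 27.7% with shEZH2, 26.9% in EOL-1 and 37.3% with the guides, and nothing is read from the counts of these few neighbours. BTG2, an antiproliferative gene and the only tested neighbour of MYBPH and CHI3L1 in both EZH2 comparisons, was 11.6 and 11.5 CPM with shEZH2, against 12.2 and 12.2 CPM with EV (-0.08, edgeR, adjusted p = 0.622), and it rose in EOL-1 (0.81, edgeR, adjusted p = 4.91e-05). CD209, the C-type lectin DC-SIGN near FCER2, which is a C-type lectin itself, was 0.373 and 0.315 CPM with shEZH2, against 1.81 and 1.72 CPM with EV (-2.33 ± 0.42, edgeR, adjusted p = 0.00185). CD209 passed the count filter of that comparison through the EV libraries alone. MCEMP1, a mast cell membrane protein on the other side, fell too (-0.99, edgeR, adjusted p = 0.0331), while CLEC4M had -1.23 (edgeR, adjusted p = 0.0573) and TRAPPC5, between MCEMP1 and FCER2, rose slightly (0.20, edgeR, adjusted p = 0.00766). With the cMyc guides CD209 (0.43, edgeR, adjusted p = 0.01) and MCEMP1 (0.94, edgeR, adjusted p = 0.000149) rose, opposite to FCER2. CD209 and CLEC4M are close paralogs, so reads could be split between them. At LGALS3BP, TIMP2 rose with the guides (0.78, edgeR, adjusted p = 6.3e-07) and had -0.29 with shEZH2 (edgeR, adjusted p = 0.066). At GNG4, B3GALNT2 rose with shEZH2 (0.49, edgeR, adjusted p = 0.000463) while GNG4 was lower.

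**Figure D4:**
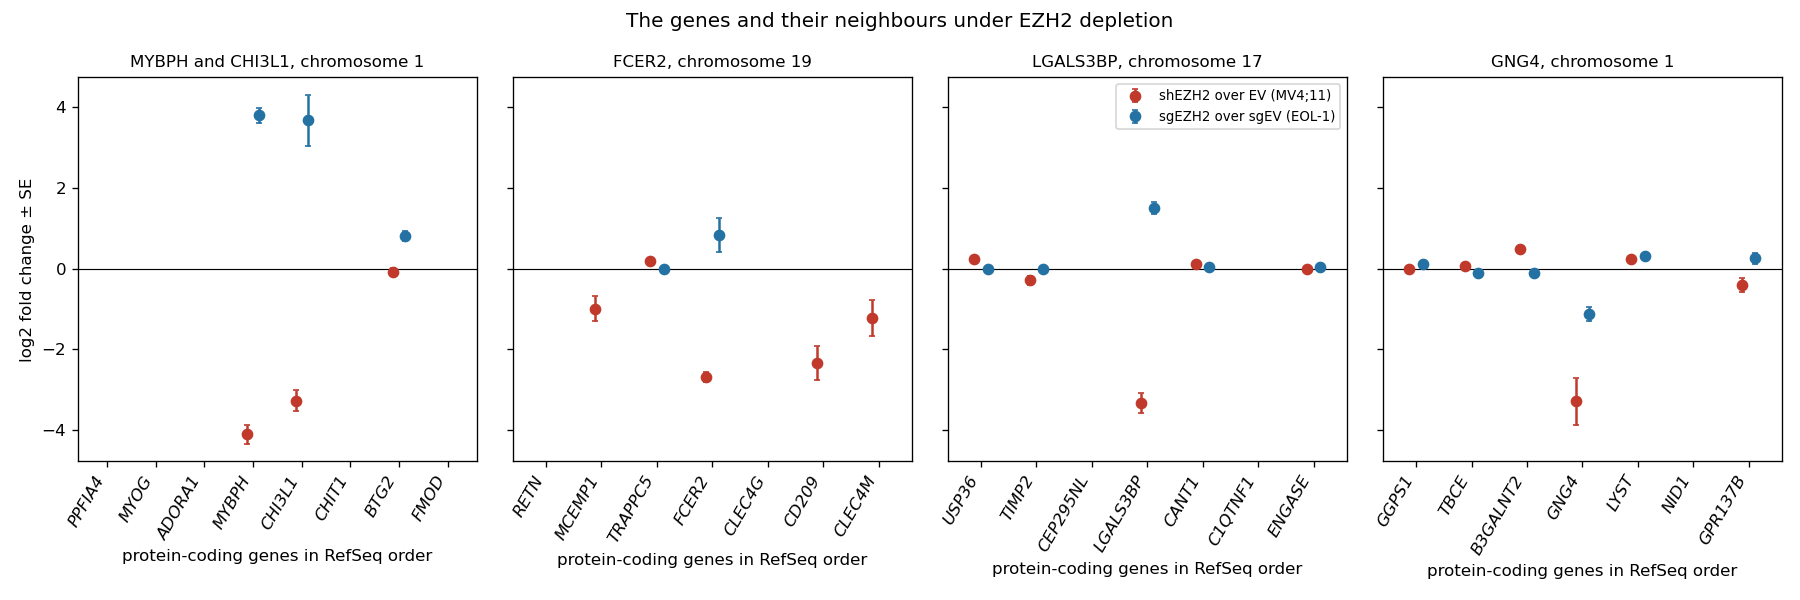
Log2 fold change ± SE of the 5 genes and of their protein-coding neighbours in RefSeq order, for shEZH2 over EV in MV4;11 and sgEZH2 over sgEV in EOL-1. Genes without a point were not tested in that comparison. MYBPH and CHI3L1 move side by side, and near FCER2 the points of MCEMP1, CD209 and CLEC4M are below 0 with shEZH2, of which CLEC4M did not pass, while TRAPPC5 is slightly above 0.

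Families and pathways of the genes gave a varied picture. Of 13 listed kin and partners of MYBPH 8 were tested, non-muscle myosin chains and other partners, and the myosin-binding C proteins were not among them. With shEZH2 1 rose and 3 fell, with a list median of -0.06 on the log2 scale. The heavy chain MYH10 rose (1.33, edgeR, adjusted p = 0.00148) and MYH9 fell (-0.67, edgeR, adjusted p = 1.13e-06). In EOL-1 2 of 8 rose and 1 fell (median 0.06), and with the cMyc guides 3 rose and 2 fell (median -0.07). Of the chitinase family and CHI3L1 receptors 5 were tested, and 1 fell with shEZH2 (median -0.13) and 1 with the guides (median 0.01), while all 5 missed the threshold in EOL-1 (median 0.05). The gene that fell with the guides was CD44, a receptor of CHI3L1 (-0.49, edgeR, adjusted p = 1.65e-06). CHIT1, the active chitinase next to CHI3L1, was not analysed here. Medians over all genes tested were 0.002 with shEZH2, 0.005 in EOL-1 and -0.003 with the guides. Over all genes 13.4% were called higher and 14.2% lower with shEZH2, 15.1% and 11.8% in EOL-1, and 18.6% and 18.7% with the guides. These shares are the background for the lists below as well. The list counts include genes that passed the count filter only through the group where they are high.

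Galectins and surface partners of LGALS3BP more often fell than rose with shEZH2, and the members that passed in EOL-1 rose. The shares of all genes called higher and lower were 13.4% and 14.2% with shEZH2, 15.1% and 11.8% in EOL-1, and 18.6% and 18.7% with the guides. With shEZH2 2 of 8 rose and 6 fell (median -0.60), among them the tetraspanin CD82 (-1.23, edgeR, adjusted p = 3.69e-07), LGALS12 (-1.19), the integrin chain ITGB1 (-0.95) and LGALS1, galectin 1 (-0.66). In EOL-1 5 of 11 rose and the other 6 did not pass (median 0.17), with CD63 (0.63), CD82 (0.61), LGALS2 (2.47) and ITGB1 (0.22) leading. LGALS2 had 31 and 38 counts with sgEZH2, against 6 and 8 counts with sgEV. It passed the count filter through the sgEZH2 libraries alone. CD82 was 29.3 and 32.4 CPM with shEZH2, against 70.2 and 74.4 CPM with EV, and 41.4 and 41.9 CPM with sgEZH2, against 27.2 and 27.4 CPM with sgEV of EOL-1. With the guides 4 of 10 rose and 2 fell (median 0.06), and ITGB1 was the gene that fell with the smallest p (-0.58, edgeR, adjusted p = 1.27e-07).

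Interferon-response genes, to which LGALS3BP is often counted, fell more often than they rose in both MV4;11 tables. With shEZH2 3 of 24 rose and 12 fell (median -0.47), and with the guides 3 of 27 rose and 15 fell (median -0.46). Of all genes 13.4% were called higher and 14.2% lower with shEZH2, 15.1% and 11.8% in EOL-1, and 18.6% and 18.7% with the guides. PARP14 (-0.82 with shEZH2 and -0.46 with the guides), OAS2 (-1.31 and -1.45), UBE2L6 (-0.72 and -0.98) and XAF1 (-0.64 and -1.12) fell with both. The antiviral BST2 fell with shEZH2 (-0.59) and rose with the guides (0.29). TRIM22 (0.72 with shEZH2 and 0.34 with the guides) and SAMHD1 (0.21 and 0.95) rose with both. In EOL-1 8 of 21 rose and 1 fell (median 0.23), among them SAMHD1 (1.03), DDX60 (1.84) and IRF1 (0.41). DDX60, a helicase of antiviral sensing, was 16.9 and 14.1 CPM with sgEZH2, against 4.17 and 4.49 CPM with sgEV. All of these named genes passed at an adjusted p under 0.05 by edgeR.

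The list of FCER2 holds its ligands, its sheddase, the interleukin 4 and Notch pathway, and chains of the high-affinity IgE receptor. In EOL-1 11 of 17 members rose (median 0.27), FCER1A and FCER1G among them, where 15.1% of all genes were called higher. The other 6 did not pass. These were the sheddase ADAM10 (0.05, edgeR, adjusted p = 0.428), IL4R, IL2RG, JAK1, JAK3 and NOTCH1. IL13RA1, a shared receptor chain for interleukins 4 and 13, was 9.26 and 10.4 CPM with sgEZH2, against 3.55 and 3.37 CPM with sgEV (1.504, edgeR, adjusted p = 3.27e-08). FCER1A, the alpha chain of the high-affinity IgE receptor, had 23 and 15 counts with sgEZH2, against 0 and 0 counts with sgEV. It passed the count filter through the sgEZH2 libraries alone. With shEZH2 4 of 16 rose and 6 fell (median -0.24), where 13.4% of all genes were called higher and 14.2% lower. The common gamma chain IL2RG (-1.80, edgeR, adjusted p = 1.14e-05), FCER1G (-1.33, adjusted p = 1.07e-05) and the integrin chain ITGB2 (-0.69, adjusted p = 1.09e-06) fell, whereas the receptor NOTCH2 rose (0.54, adjusted p = 7.26e-05). With the guides 6 of 17 rose and 3 fell (median 0.03), where 18.6% of all genes were called higher and 18.7% lower. ITGAM, a partner of ITGB2 that binds CD23, rose most clearly with the guides (1.59, edgeR, adjusted p = 4.83e-06), while FCER2 fell.

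Other G protein subunits that passed moved in both directions, and nothing is read from how many were called. The shares of all genes called higher and lower were 13.4% and 14.2% with shEZH2, 15.1% and 11.8% in EOL-1, and 18.6% and 18.7% with the guides. Of the beta and gamma subunits, 1 of 9 rose and 2 fell with shEZH2 (median -0.02), 5 of 10 rose and 2 fell in EOL-1 (median 0.11) and 4 of 9 rose with the guides (median 0.12). GNB5 rose with shEZH2 (0.60, edgeR, adjusted p = 0.00417) and GNG10 fell (-0.39, edgeR, adjusted p = 0.0126). GNG11, another gamma subunit, had 25 and 25 counts with sgEZH2 in EOL-1, against 0 and 0 counts with sgEV, and GNG4 was lower in the same libraries. GNG11 passed the count filter there through the sgEZH2 libraries alone. Among alpha subunits and effectors 7 of 16 rose and 5 fell with shEZH2 (median 0.06), 4 of 17 rose and 3 fell in EOL-1 (median 0.00), and 5 of 17 rose and 4 fell with the guides (median 0.06). GNAZ, an inhibitory alpha subunit, had 28 and 25 counts with shEZH2, against 3 and 3 counts with EV. It passed the count filter through the shEZH2 libraries alone.

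**Figure D5:**
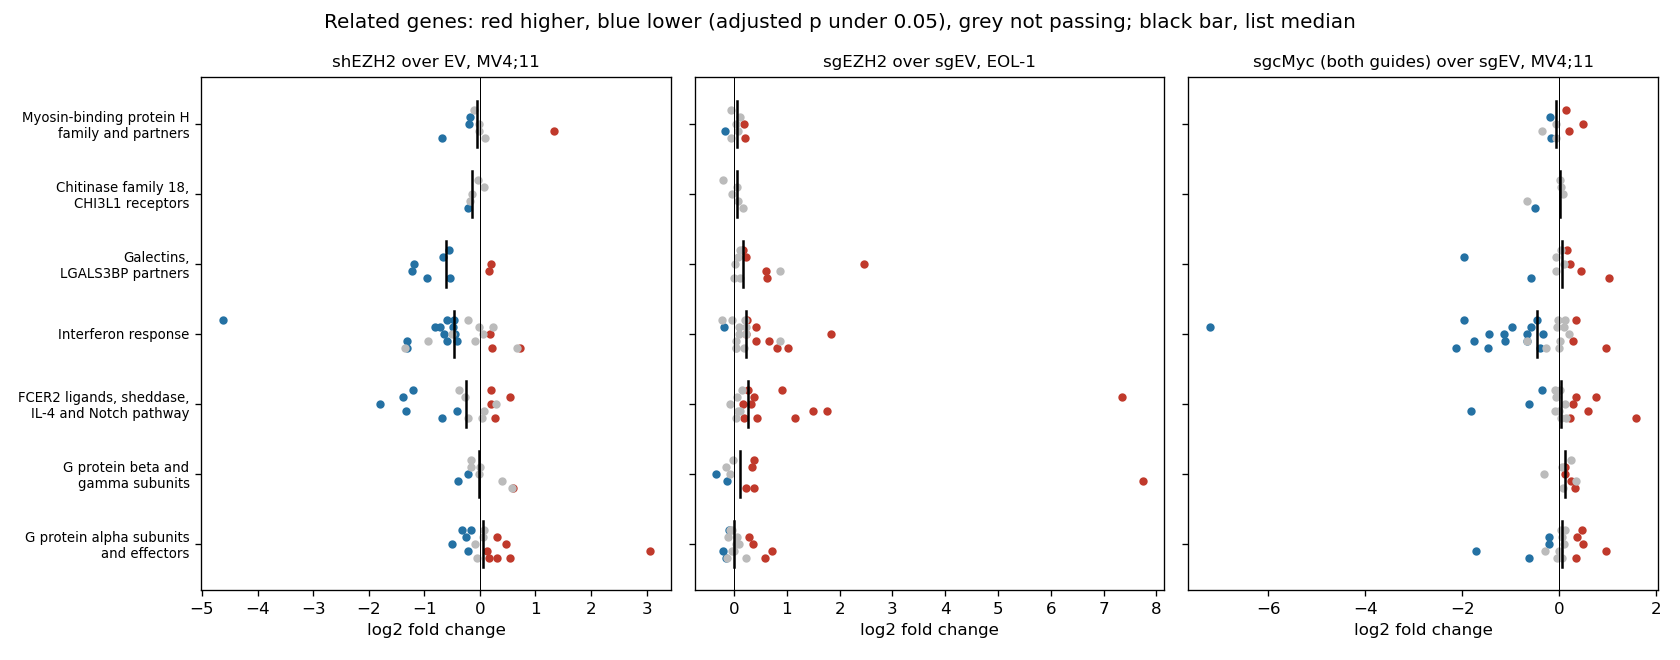
Log2 fold change of the genes of 7 related lists (rows) in 3 comparisons (panels), with red for higher and blue for lower at an adjusted p under 0.05, grey for not passing and a black bar for the list median. In the EZH2 panels the galectin, interferon and FCER2 pathway medians are below 0 in MV4;11 and above 0 in EOL-1. Points beyond 5 on the log2 scale are genes with few or no counts in 1 group, for which the fitted value is no bound.

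The lists also differed between the MV4;11 controls. In EV against sgEV 14 of 17 genes of the FCER2 pathway list were lower and 2 higher (median -1.04). Of 25 interferon-response genes 18 were lower and 1 higher (median -0.69), while the galectin list had 5 of 9 lower and 2 higher (median -0.24). Between these controls 26.5% of all genes were called lower and 27.1% higher. ITGAX, a ligand chain of CD23, was the largest of the FCER2 list (-3.62, edgeR, adjusted p = 8.53e-13), and IFI6 (-1.87) and SAMHD1 (-1.04) were lower as well. Members of these lists were thus more often lower than higher in EV set against sgEV, as MYBPH, CHI3L1, LGALS3BP and FCER2 were.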

How the data were processed

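RNA-seq was deposited as 1 table per experiment, 3 in all. Raw columns hold estimated counts per gene, as deposited by the authors, and normalised columns hold the authors' log2 values, per the file headers. A deposited mean column (a signal averaged over libraries) was not used. RSEM, DESeq and hg19 are named, without versions or roles, per the submitters' processing notes. Not given in the sources used here were the strand setting, aligner, annotation, versions and gene filter. The reference at hand (GRCh38.p14) is of another build, so coordinates are those of RefSeq promoter windows only, and RefSeq order gave the neighbours. Columns, named more briefly than the sample titles, were matched by target, guide and replicate number.

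Estimated counts were rounded. The 56 spike-in rows of the MV4;11 tables (1.06 to 1.3% of counts) stayed out of library sizes and tests, and 18 rows per table with a date for a symbol were tested and not named. Genes passed filterByExpr (at least 10 counts), libraries were scaled by TMM, and edgeR 4.0.16 (R 4.3.3) ran glmQLFit (robust) and glmQLFTest per table, adjusted by Benjamini-Hochberg over all genes at 0.05. Guides shared 1 fit with sgEV. The difference between lines and the control baselines came from joint fits on the counts of several tables. The fits were tested on simulated data. Libraries of a group were no copies of each other (chi-square per degree of freedom 1.47 to 5.47).

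Some members of the lists are not reported here. The 5 genes, the lists and the motifs were chosen with earlier results of these data known. Named besides are EZH2 and MYC, up to 4 genes of each list with the smallest p in a comparison, tested neighbours, and the 3 genes of most similar profile (log2 CPM with a prior count of 2, minus the mean of the table's controls). Members of the FCER2 list that did not pass in EOL-1 are named too. Alternatives were DESeq2 1.42.0, its size factors, other count filters, no robust fit, a replicate block, spike-in scaling, limma 3.58.1 on the deposited log2 values, separate fits per guide, and leaving out each library.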

Additional observations from a re-analysis of the deposited data

Results flagged for a closer look

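The EZH2 effect, MV4;11 minus EOL-1, was flagged for 4 genes by a rule on overlap. Every shEZH2 library was below every EV library, while every sgEZH2 library was above every sgEV library of EOL-1. The share of all genes that meet this rule is not given, so nothing is read from the count of 4. The effect was -7.89 for MYBPH, -6.92 for CHI3L1, -4.80 for LGALS3BP and -3.50 for FCER2 on the log2 scale. These genes were listed for that difference, so the difference was not tested. The EOL-1 side of FCER2 was 0.83 ± 0.42, on 39 summed counts with sgEZH2 and 25 with sgEV.

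MYBPH differed between the cMyc guides, with guide 5 minus guide 1 at -0.55 ± 0.07 (edgeR, adjusted p = 0.00632). Both guide 1 libraries were above and both guide 5 libraries below the sgEV libraries.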

How the results depend on the processing

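No direction of the 5 genes that had passed a test or was described for EZH2 was turned round by any alternative. On the authors' log2 values the changes kept their direction and shrank, with shEZH2 to -1.36 for MYBPH, -1.01 for CHI3L1, -1.73 for LGALS3BP, -1.57 for FCER2 and -0.57 for GNG4, and in EOL-1 to 1.48 for MYBPH, 0.426 for CHI3L1, 0.664 for LGALS3BP, 0.134 for FCER2 and -0.411 for GNG4; the cause was not tested. A mean of at least 50 counts left GNG4 out in the shEZH2 table, CHI3L1 and FCER2 in EOL-1 and CHI3L1 in the joint fit, so it gave no value there.

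DESeq2 called fewer genes, higher and lower: 1635 and 1584 over both cMyc guides, 1346 and 1279 for guide 1, 1312 and 1247 for guide 5, 905 and 939 for shEZH2, 1122 and 748 in EOL-1, and 917 and 1129 for the difference between lines. CHI3L1 with guide 5 was 0.334 there and did not pass (adjusted p = 0.0636). Spike-in scaling left 1169 lower genes over both guides, 1015 for guide 1 and 828 for guide 5, 805 higher genes for shEZH2 (1407 lower), and 0 higher and 1 lower gene between the guides, where MYBPH was -0.487 (adjusted p = 0.239). The cause of these shifts was not tested.

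Replicate numbers were not used to pair samples in the main fit. The labels do not say whether equal numbers share a culture. The correlation of deviations, -0.25 to 0.28 with 2 libraries per group, cannot settle it. With the replicate as a block 33 genes were higher and 96 lower between the guides, and no call of the tested genes changed. The crossed pairing in EOL-1, chosen after seeing the data, called 2199 higher and 1724 lower genes.

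Leaving out each library gave 1427 to 3094 higher and 1502 to 3082 lower genes over both guides, 1243 to 1428 and 1234 to 1345 for guide 1, 1174 to 2602 and 1186 to 2474 for guide 5, and 5 to 417 and 3 to 455 between the guides. It gave 1186 to 2200 higher genes for shEZH2 and 1020 to 1942 lower genes in EOL-1. MYBPH ranged over 0.299 to 0.442 with guide 1 and -0.613 to -0.475 between the guides, where FCER2 ranged over 0.054 to 0.192. LGALS3BP ranged over -4.02 to -2.85 with shEZH2 and -5.52 to -4.33 between lines. CHI3L1 ranged over 3.03 to 4.65 in EOL-1 and -7.88 to -6.29 between lines, and GNG4 over -4.50 to -2.65 with shEZH2 and -3.42 to -1.54 between lines. A library left alone in its group is assumed to vary like the others. Depth limits GNG4 in the sgcMyc and shEZH2 tables and CHI3L1 and FCER2 in EOL-1.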
